A study of Mus musculus with 2 samples.

Results

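The insulin-like growth factor (IGF) system was described in the stromal vascular fraction of obese mouse fat through 9 genes, chosen by name: the ligands Igf1 and Igf2, the receptors Igf1r and Igf2r, and the binding proteins Igfbp3, Igfbp4, Igfbp5, Igfbp6 and Igfbp7. All 9 were among the 30084 genes of the deposited count table, and all are protein-coding in the GENCODE annotation of GRCm38. Igf1 lies on chromosome 10 (87858265 to 87937042), Igf2 and Igf1r on chromosome 7, Igf2r on 17, Igfbp3 and Igfbp4 on 11, Igfbp5 on 1, Igfbp6 on 15 and Igfbp7 on 5. The cells came from epididymal white fat of male mice on a C57BL/6J background, wild-type or deficient in Mincle (a lectin receptor of macrophages), and all were fed a high-fat diet, which lasted 15 weeks. Each cell suspension got 1 of 4 hashtag antibodies (A0309 to A0312) before pooling, and the pool was sequenced as 1 transcript library with 1 hashtag library. The sources used here do not say which hashtag carries which genotype, nor how many mice stand behind a hashtag, so no genotype comparison was made and no p-value is given.

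IGF1 and IGF2 are secreted growth factors that signal mainly through the IGF1 receptor, a tyrosine kinase that acts through the IRS adaptors, PI3-kinase and AKT. The IGF2 receptor, also the cation-independent mannose 6-phosphate receptor, carries lysosomal enzymes and takes up IGF2 for degradation. The binding proteins hold IGFs in the fluid around cells and can limit or prolong their action, until proteases such as PAPP-A and the HTRA family cut them. In fat, IGF1 promotes the growth and differentiation of adipocyte precursors.

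After removal of called doublets and of poor cells, 15192 cells were kept, from 3255 to 4605 per hashtag, with a median of 34642 counts per cell. Classes were rebuilt by clustering without the 9 genes and were named from marker genes, each name to be read as "-like". They held 7583 macrophage-like, 3456 fibroblast-like, 938 endothelial-like and 269 mural-like cells, and 952 cells, whose sub-clusters had markers of a foreign class in front, stayed out. Median depth was 41402 counts per cell in macrophage-like, 35239 in fibroblast-like, 12713 in endothelial-like and 15150 in mural-like cells. Levels are counts scaled to a common library total (CPM) from the summed counts of a population. They are set side by side between populations and not between genes, since transcript length differs. Ranges are over hashtags with at least 20 cells. With 1 library there is no replicate test, and a gene was called different when the log2 ratio of CPM + 1 was at least 1 in size with the same sign in the pool and in every such hashtag.

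**Figure D1:**
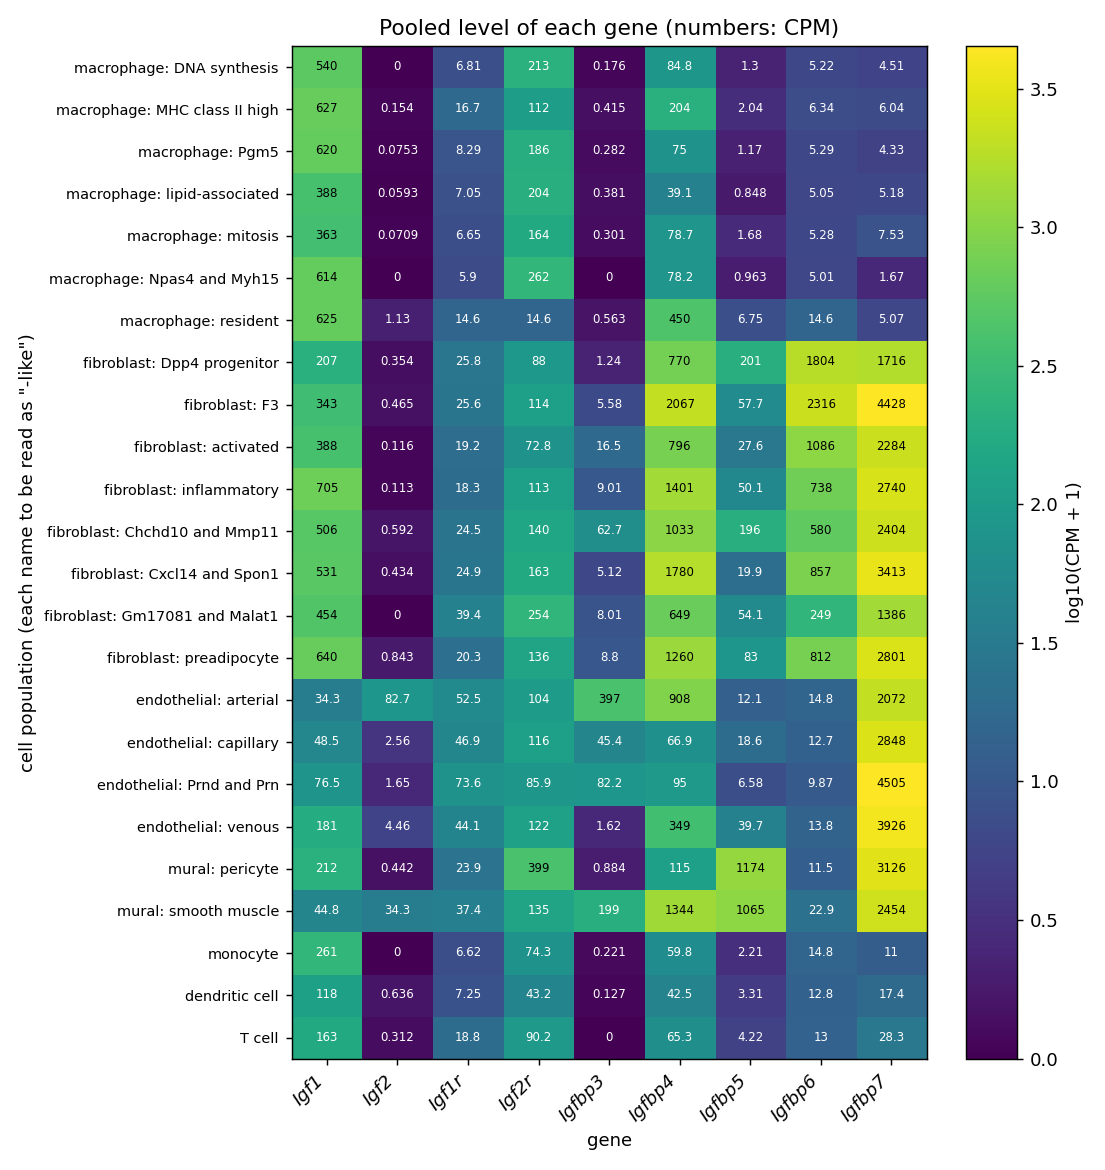
Pooled level of each of the 9 genes (columns) in each named population of at least 50 cells and in immune cells (rows), coloured by log10(CPM + 1) with the CPM printed in each cell. Igf1 is high in both macrophage-like and fibroblast-like rows, while Igfbp6 is high in fibroblast-like rows alone among those drawn.

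Igf1, the main ligand, was at a similar level in macrophage-like and fibroblast-like cells. In macrophage-like cells the level was 452 CPM for A0309, 583 for A0310, 482 for A0311 and 495 for A0312. In fibroblast-like cells it was 440, 579, 475 and 449 CPM in the same hashtag order. The 2 classes overlapped, A0310 was the highest hashtag in both, and the log2 ratio was 0.04, with hashtags between 0.01 and 0.14. For reference, 163 CPM of Igf1 was found in T-cell-like cells, 24.7% of which had a count. Their summed level of the 9 macrophage markers was 3322 CPM, against 10000 CPM in macrophage-like cells. Endothelial-like cells held 74.9 CPM of Igf1 and 286 CPM of those markers. Their Igf1 was 14.8% of the macrophage-like level, where the macrophage markers stood at 0.975% to 7.86%, and 15.3% of the fibroblast-like level, where the fibroblast markers stood at 0.0422% to 6.12%. Venous-like cells held 181 CPM (74.4 to 269), overlapping with T-cell-like cells (141 to 202). The part of RNA from other cells in these levels was not tested.

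Of the 8 genes at 5 CPM or more in either class, 6 were called between macrophage-like and fibroblast-like cells, all 6 higher in fibroblast-like cells. Among all 12096 genes at that level, 33.3% were called in either direction, 19.1% toward fibroblast-like and 14.2% toward macrophage-like cells. Igfbp7, which binds IGFs weakly and is known from vessel walls, was 2488 CPM in fibroblast-like and 5.45 CPM in macrophage-like cells, a log2 ratio of -8.59. Igfbp6, which prefers IGF2, was 1070 against 5.53 CPM, a log2 ratio of -7.36. Igfbp5 was 110 against 1.41 CPM, and Igfbp3 was 13.3 against 0.334 CPM. Igfbp4, an inhibitor of IGF1 that PAPP-A cuts, was 1156 against 103 CPM, a log2 ratio of -3.48. Igf1r was 22.4 against 9.79 CPM, and its log2 ratio of -1.12 fell short of a call in 5 of the alternatives tried. Igf2r was not called, at 172 CPM in macrophage-like and 118 CPM in fibroblast-like cells.

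The 8 fibroblast markers stood in macrophage-like cells at 0.00514% to 1.09% of their fibroblast-like level, with a median of 0.317%. Igfbp7 stood at 0.219% and Igfbp6 at 0.517%, inside that range. Igfbp5 at 1.28% and Igfbp3 at 2.51% lay just above it, and Igfbp4 at 8.87% lay well above it. Igfbp7 is 1 of 68 genes whose low values are 0 in the table, with a lowest value above 0 of 7 counts, so its macrophage-like level may be understated and its place in the range is uncertain. The part of RNA from fibroblast-like cells in these levels was not tested.

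**Figure D2:**
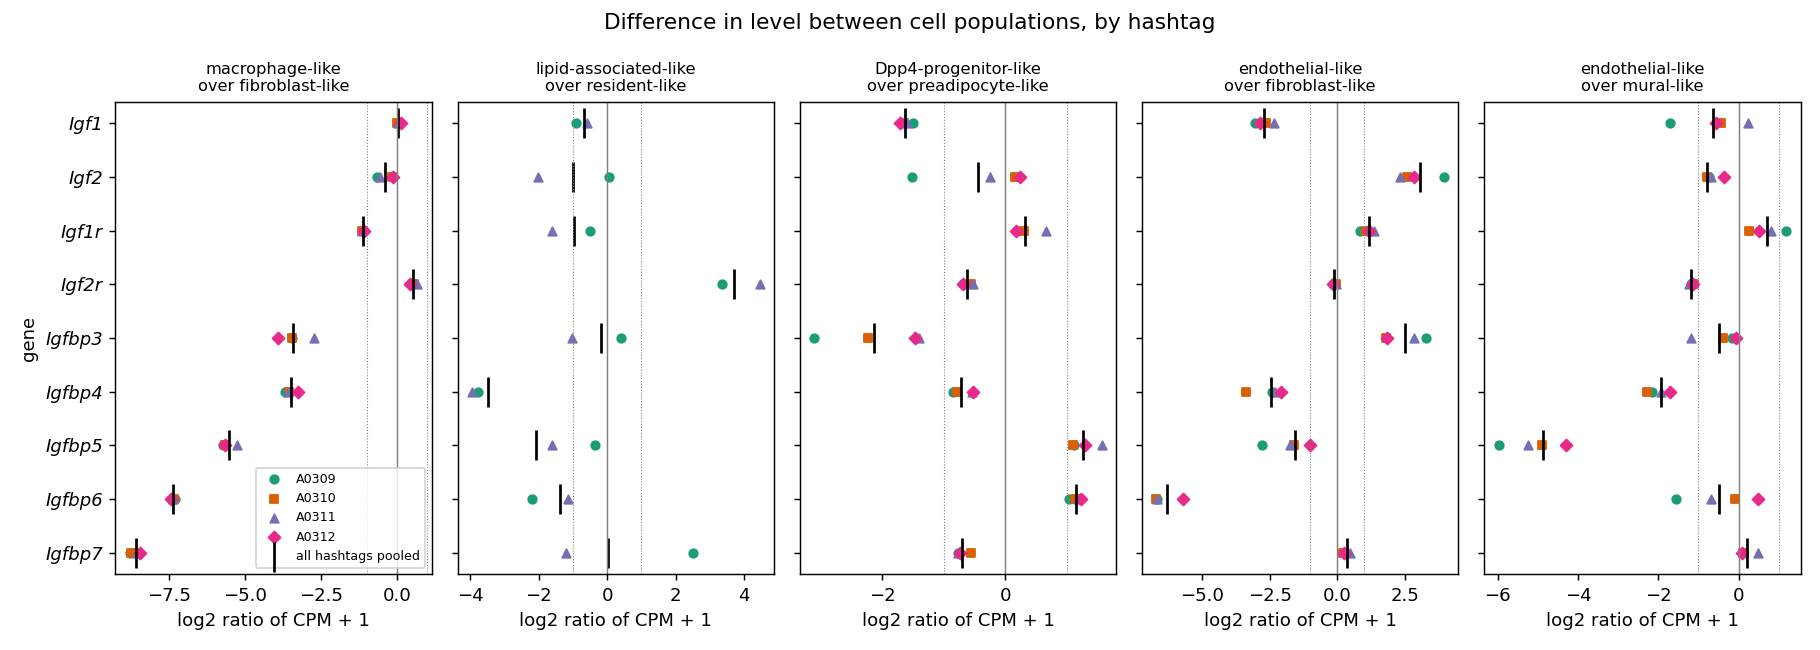
Log2 ratio of CPM + 1 for each gene (rows) in 5 comparisons (panels), with 1 point per hashtag of at least 20 cells in both populations and a black bar for the pool; dotted lines mark -1 and 1. In the macrophage-like over fibroblast-like panel the Igfbp points lie left of -1 for every hashtag, and the Igf1 points lie near 0.

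Within the macrophage-like cells the genes differed between states. The resident-like state, led by Cd209f and Lyve1, had 90 cells, and only A0309 and A0311 held 20 or more of them. The lipid-associated-like state, marked by Gpnmb and Mmp12, had 1728 cells. Igf2r was 17.9 CPM in A0309 and 8.35 CPM in A0311 in resident-like cells, and 194 to 211 CPM over the 4 hashtags in lipid-associated-like cells. The states did not overlap, and the pooled log2 ratio was 3.71, higher in lipid-associated-like cells. Igfbp4 ran the other way, at 423 CPM in A0309 and 536 CPM in A0311 in resident-like cells against 30.2 to 48.1 CPM in lipid-associated-like cells, a log2 ratio of -3.49. Resident-like cells also held 235 CPM of summed fibroblast markers, against 55.2 CPM in lipid-associated-like cells. Its part in the Igfbp4 result was not tested. Fibroblast-like cells, for scale, held 48340 CPM of those markers and 1156 CPM of Igfbp4.

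Of 7 genes at 5 CPM or more, 3 were called in this comparison, where 17.0% of all genes were called, 5.83% higher in lipid-associated-like and 11.1% higher in resident-like cells. The third was Igfbp6, at 14.6 CPM in resident-like and 5.05 CPM in lipid-associated-like cells, and it rested on 26 counts in 12 resident-like cells. This call was lost under 6 alternatives, among them leaving out A0309, where the log2 ratio was -0.44. The median log2 ratio of all genes in this comparison was -0.21. Igf1 was not called, at 625 CPM in resident-like and 389 CPM in lipid-associated-like cells. Over all macrophage-like states Igf1 ran from 363 CPM in the mitosis-like state to 627 CPM in the MHC class II high-like state. Lipid-associated-like cells (347 to 480 over hashtags) did not overlap with DNA-synthesis-like cells (487 to 638), the next above them. The lipid-associated-like sub-clusters differed: 863 cells led by Arg1 and Gm4610 held 367 CPM and 607 led by Mfge8 and Cd200 held 340 CPM. The other 258, led by Serpinb9b and Uchl1, held 600 CPM (572.7 to 681.5), overlapping with DNA-synthesis-like cells. A further 936 cells led by Retnla and Ear2 had no class name. They held 247.5 CPM of Igf1 (178.4 to 284.5) and 7916 CPM of summed macrophage markers. Igf1r was 16.7 CPM in MHC class II high-like cells (15.1 to 18.4 over hashtags) and 7.05 CPM in lipid-associated-like cells (6.03 to 8.03), without overlap. Igfbp4 was 204 CPM in MHC class II high-like cells (163 to 231), between the resident-like and the lipid-associated-like level.

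**Figure D3:**
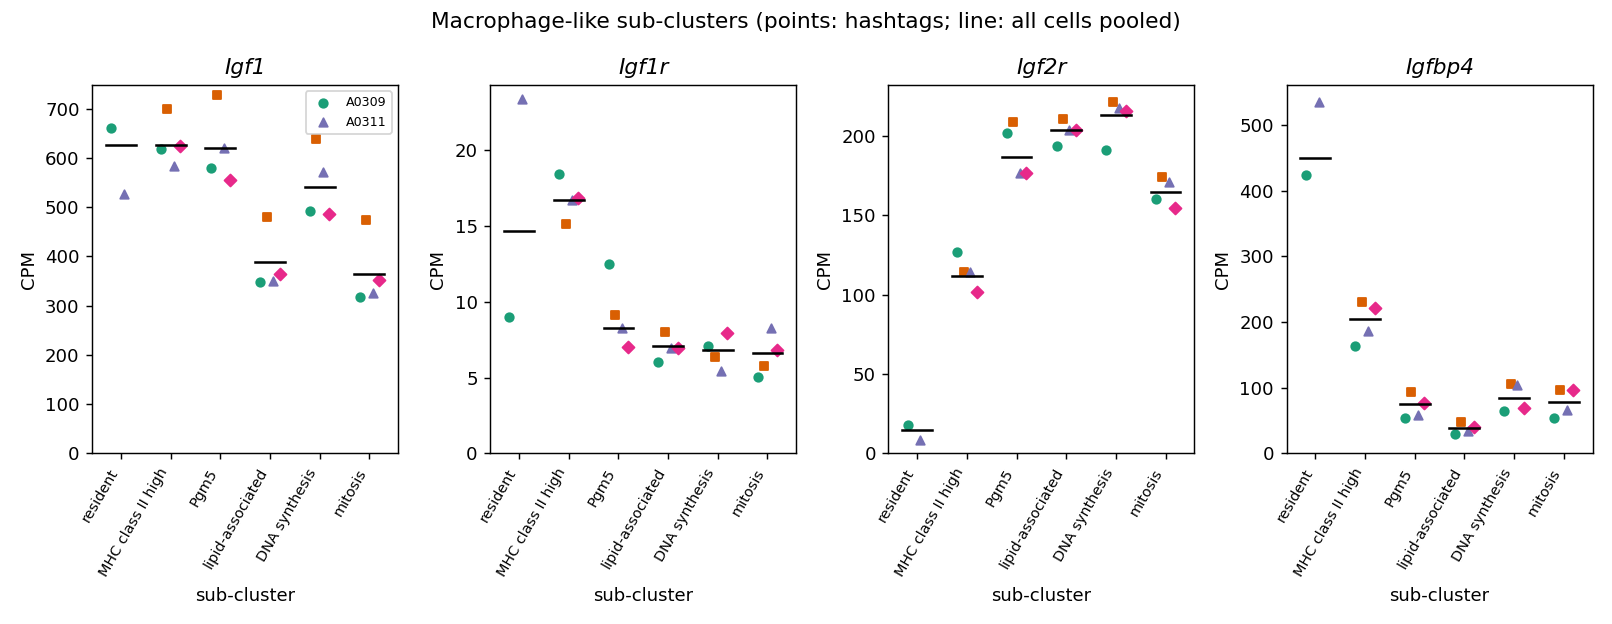
Level of Igf1, Igf1r, Igf2r and Igfbp4 (panels, CPM on linear axes from 0) in 6 macrophage-like sub-clusters, with 1 point per hashtag of at least 20 cells and a line for the pool. Igf2r is lowest and Igfbp4 highest in the resident-like cells, which have points for 2 hashtags.

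Igf1 was lower, and Igfbp6 higher, in Dpp4-progenitor-like than in preadipocyte-like cells. Dpp4-progenitor-like cells (854) are marked by Dpp4, Pi16 and Sema3c, genes of an early adipose precursor, and preadipocyte-like cells (669) by Fabp4, Pparg and Lpl, genes of adipocyte commitment. Igf1 in Dpp4-progenitor-like cells was 208 CPM for A0309, 235 for A0310, 200 for A0311 and 185 for A0312. In preadipocyte-like cells it was 585, 731, 604 and 608 CPM in that order. The groups did not overlap, and Igf1 was 3.09-fold higher in preadipocyte-like cells. Igfbp6 was 1830, 1803, 1781 and 1798 CPM in Dpp4-progenitor-like cells, in hashtag order, against 890, 815, 781 and 763 CPM in preadipocyte-like cells. It was 2.22-fold higher in the progenitor-like cells, again with no overlap. Igfbp5, a binding protein held in the matrix, was 201 CPM (169 to 235) in Dpp4-progenitor-like and 83.0 CPM (56.2 to 94.6) in preadipocyte-like cells. The Dpp4-progenitor-like level came from 1 of its sub-clusters: 504 cells led by Adamts16 and Efhd1 held 324 CPM of Igfbp5 (291 to 346), while a smaller one led by Ltbp2 and Scg3 held 29.2 CPM (14.04 to 53.9), below preadipocyte-like cells without overlap. For Igf1 and Igfbp6 both sub-clusters lay on the same side of preadipocyte-like cells, at 100.1 and 361 CPM of Igf1 and at 1856 and 1777 CPM of Igfbp6. Igfbp3, the main carrier of IGFs in plasma, was 1.24 CPM (0.837 to 1.87) against 8.80 CPM (4.75 to 17.2).

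Of 8 genes at 5 CPM or more, 4 were called between these states, where 5.05% of all genes were called. Igfbp5 and Igfbp6 were higher in Dpp4-progenitor-like cells, as were 2.71% of all genes, and Igf1 and Igfbp3 were higher in preadipocyte-like cells, as were 2.35%. The Igfbp3 and Igfbp5 calls, and under the strict hashtag rule the Igf1 and Igfbp6 calls, were each lost under at least 1 alternative with no change of sign. Igf1r, Igf2r, Igfbp4 and Igfbp7 were not called, with log2 ratios of 0.33, -0.62, -0.71 and -0.71.

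The promoters of these 4 genes are shown because their levels differed between the same 2 states. Each is 300 bases on the gene's own strand, from RefSeq on GRCm38.p6, and capitals mark a match on either strand to the TATA box, spelled TATAAA, to the GC box, spelled GGGCGG, or to a STAT5 site, spelled TTCNNNGAA. The Igf1 window lies inside the GENCODE gene, downstream of its annotated start at 87858265 on the same strand. Igf1 lies at chr10:87860861-87861160 (+), Igfbp3 at chr11:7213874-7214173 (-), Igfbp5 at chr1:72874816-72875115 (-) and Igfbp6 at chr15:102143936-102144235 (+).
Igf1: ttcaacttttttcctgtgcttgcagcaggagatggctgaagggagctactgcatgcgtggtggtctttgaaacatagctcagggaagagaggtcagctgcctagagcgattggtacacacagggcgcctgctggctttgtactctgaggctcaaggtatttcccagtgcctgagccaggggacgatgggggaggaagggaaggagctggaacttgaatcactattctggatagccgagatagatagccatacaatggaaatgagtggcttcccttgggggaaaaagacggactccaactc
Igfbp3: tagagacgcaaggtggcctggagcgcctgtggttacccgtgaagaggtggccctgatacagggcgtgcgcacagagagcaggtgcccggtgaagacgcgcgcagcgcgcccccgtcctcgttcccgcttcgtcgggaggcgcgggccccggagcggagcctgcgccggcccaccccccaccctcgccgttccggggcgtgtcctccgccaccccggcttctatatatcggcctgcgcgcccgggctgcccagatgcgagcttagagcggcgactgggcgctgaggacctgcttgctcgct
Igfbp5: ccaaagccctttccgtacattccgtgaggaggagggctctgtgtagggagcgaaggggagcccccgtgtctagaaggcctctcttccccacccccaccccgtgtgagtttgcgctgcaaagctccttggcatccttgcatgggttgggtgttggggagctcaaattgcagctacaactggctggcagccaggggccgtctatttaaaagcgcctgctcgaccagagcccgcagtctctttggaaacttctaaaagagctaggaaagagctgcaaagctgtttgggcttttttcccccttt
Igfbp6: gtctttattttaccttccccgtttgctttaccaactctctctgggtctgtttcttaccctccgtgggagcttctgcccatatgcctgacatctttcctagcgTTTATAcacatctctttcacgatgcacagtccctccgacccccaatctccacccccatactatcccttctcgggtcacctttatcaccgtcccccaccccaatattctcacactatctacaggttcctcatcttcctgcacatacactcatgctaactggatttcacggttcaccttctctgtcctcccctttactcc
Among these 4, only the Igfbp6 window held a match, 1 to the TATA box, on the other strand. Of 32851 promoters in the table, 13.6% held the TATA box, 35.7% the GC box and 8.3% the STAT5 site. No match says only that these letters are not in the window.

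Other fibroblast-like sub-clusters took further positions. The inflammatory-like state, led by Rgs16 and Agt, had the highest pooled Igf1 of the 25 populations with at least 50 cells, 705 CPM (628 to 825). Its range overlapped with those of preadipocyte-like, MHC class II high-like (583.9 to 698.3) and Pgm5-like cells (555.5 to 727.5), among others. Within the MHC class II high-like state, the sub-cluster led by Tmem176a and Tmem176b held 703 CPM (652 to 766). A sub-cluster led by Chchd10 and Mmp11 held 62.7 CPM of Igfbp3, with 45.6 CPM for A0309, 50.0 for A0310, 24.4 for A0311 and 132 for A0312. Its Igfbp5, at 196 CPM (142 to 278), overlapped with that of Dpp4-progenitor-like cells. The F3-like sub-cluster had only 59 cells and no hashtag with 20. Its pooled levels were 2067 CPM of Igfbp4, 2316 CPM of Igfbp6 and 4428 CPM of Igfbp7. A group of 17 mesothelial-like cells held 4506 CPM of Igfbp6 and 2011 CPM of Igfbp5, too few to be described by hashtag.

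**Figure D4:**
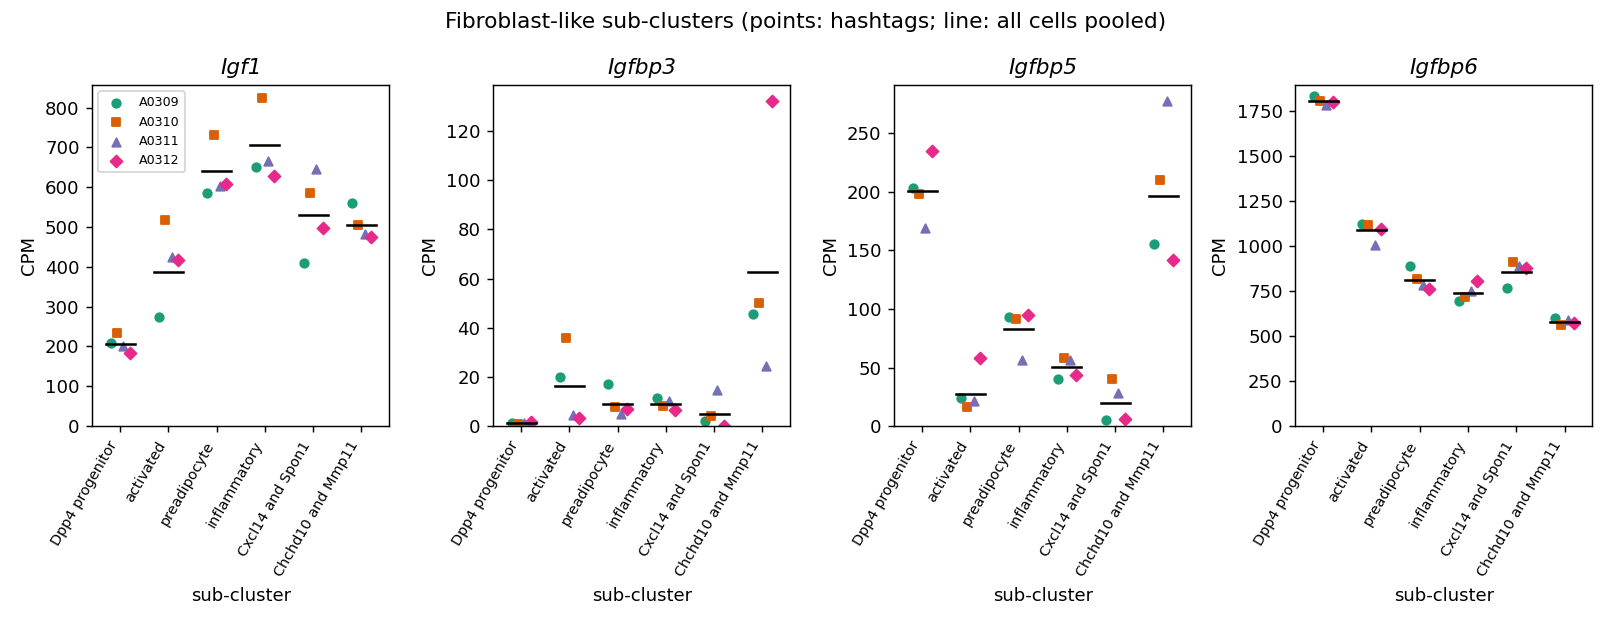
Level of Igf1, Igfbp3, Igfbp5 and Igfbp6 (panels, CPM on linear axes from 0) in 6 fibroblast-like sub-clusters, with 1 point per hashtag and a line for the pool. The Dpp4-progenitor-like cells are lowest for Igf1 and highest for Igfbp6.

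Igfbp7 was high in the 6 vascular sub-clusters of at least 50 cells, from 2072 to 4505 CPM, while 14 lymphatic-like cells held 239 CPM, with a count in 4 of them. Igfbp7 was 3188 CPM in endothelial-like and 2745 CPM in mural-like cells, not called against each other or, for endothelial-like cells, against fibroblast-like cells. In mural-like cells Igfbp5 was 929 CPM for A0309, 1130 for A0310, 1224 for A0311 and 1171 for A0312. In endothelial-like cells it was 13.7, 36.8, 31.5 and 58.0 CPM in the same order. The classes did not overlap, and Igfbp5 was 30.2-fold higher in mural-like cells. Of 532 Igfbp5 counts in endothelial-like cells, 255 were in the 14 lymphatic-like cells, which held 1049 CPM with a count in 8 of them. Venous-like cells held 39.7 CPM, capillary-like 18.6, arterial-like 12.1, and an endothelial-like sub-cluster led by Prnd and Prn 6.58. Igfbp5 was high in both mural-like sub-clusters, at 1174 CPM in pericyte-like and 1065 CPM in smooth-muscle-like cells. Igf2r was 399 CPM (361 to 448) in pericyte-like cells and 135 CPM (79.6 to 161) in smooth-muscle-like cells, and the pericyte-like level was the highest of the populations with at least 50 cells.

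Of the 9 genes, 3 were called between endothelial-like and mural-like cells, Igf2r, Igfbp4 and Igfbp5, all higher in mural-like cells, as were 7.21% of all genes, with 11.3% called in either direction and 4.09% toward endothelial-like cells. The smooth-muscle-like sub-cluster has arterial genes (Sema3g, Gja5) among its leading genes and 4299 CPM of summed endothelial markers, against 582 CPM in pericyte-like and 10350 CPM in endothelial-like cells. The part of these markers in the results was not tested. Igf2r lost its call under the strict hashtag rule (-0.52), with mixed sub-clusters kept (-0.60) and at clustering resolution 0.5 (-0.80), and Igfbp4 under the strict rule (-1.52) and at resolutions 0.5 (-1.29) and 2 (-1.61). At those resolutions Igfbp3 was called higher in endothelial-like cells, at 2.41 and 3.81. With pericyte-like cells alone, Igfbp4 turned to higher in endothelial-like cells, from a log2 ratio of -1.93 to 0.87, and Igf2 and Igfbp3 became called higher in endothelial-like cells at 3.05 and 5.43.

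Igfbp3 differed between arterial-like, capillary-like and venous-like cells. In arterial-like cells it was 428 CPM in A0309, 250 in A0311 and 555 in A0312, with A0310 under 20 cells. In capillary-like cells it was 45.4 CPM (29.3 to 83.6), and in venous-like cells 1.62 CPM (0 to 4.41). Arterial-like and capillary-like cells did not overlap, nor did capillary-like and venous-like cells. The sub-cluster led by Prnd and Prn held 82.2 CPM (57.5 to 172.3), overlapping with capillary-like cells. The 14 lymphatic-like cells held 37.0 CPM, with a count in 1 of them. Smooth-muscle-like cells held 199 CPM (118 to 285) and pericyte-like cells 0.884 CPM (0 to 1.94). Igfbp4 was also high in arterial-like cells, at 908 CPM (589 to 1223), against 66.9 CPM (35.4 to 91.2) in capillary-like cells. Igf1r was 73.6 CPM (59.4 to 77.6) in the sub-cluster led by Prnd and Prn, and 44.2 to 52.5 CPM in capillary-like, venous-like and arterial-like cells. These 3 states overlapped each other, and venous-like cells (25.1 to 54.0) alone among them did not overlap with the Prnd and Prn sub-cluster.

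Igf2 was nearly absent outside the arterial-like and smooth-muscle-like cells. The arterial-like level was 82.7 CPM, at 143 CPM in A0309, 27.3 in A0311 and 84.0 in A0312. It came from 123 counts in 9 of 104 cells, of which 57 were in a single cell, and was 45.2 CPM without that cell. Smooth-muscle-like cells held 34.3 CPM, from 102 counts in 20 of 110 cells. In T-cell-like cells, 2 of 401 had a count, at a median depth of 10488 counts against 12324 in arterial-like cells. The other populations among the 25 with at least 50 cells, which leave out mixed sub-clusters, were at 4.46 CPM or lower. No count was found in 393 DNA-synthesis-like macrophages, which allows up to 0.106 CPM.

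Against fibroblast-like cells, 6 of 9 genes were called in endothelial-like cells, where 23.4% of all genes were called. Igf2 and Igfbp3 were higher in endothelial-like cells, as were 12.8% of all genes, with log2 ratios of 3.06 and 2.50. Igf1, Igfbp4, Igfbp5 and Igfbp6 were lower, as were 10.6%, with log2 ratios of -2.69, -2.44, -1.56 and -6.31. Of 158 Igf2 counts in endothelial-like cells, 123 were in arterial-like cells, and capillary-like cells held 2.565 CPM. Of their 532 Igfbp5 counts, 255 were in 14 lymphatic-like cells. The Igfbp5 call was lost under 5 alternatives, with ratios from -1.64 to -0.97, and the Igf2 call at both other clustering resolutions, with ratios of 1.31 and 1.32. Igfbp3 lost its call at resolution 0.5 (1.82) and Igf1 with mixed sub-clusters kept (-1.07). The median of all genes was 0.31, so the higher levels are smaller and the lower ones larger relative to it. This comparison shares its fibroblast-like cells with the macrophage-like one.

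**Figure D5:**
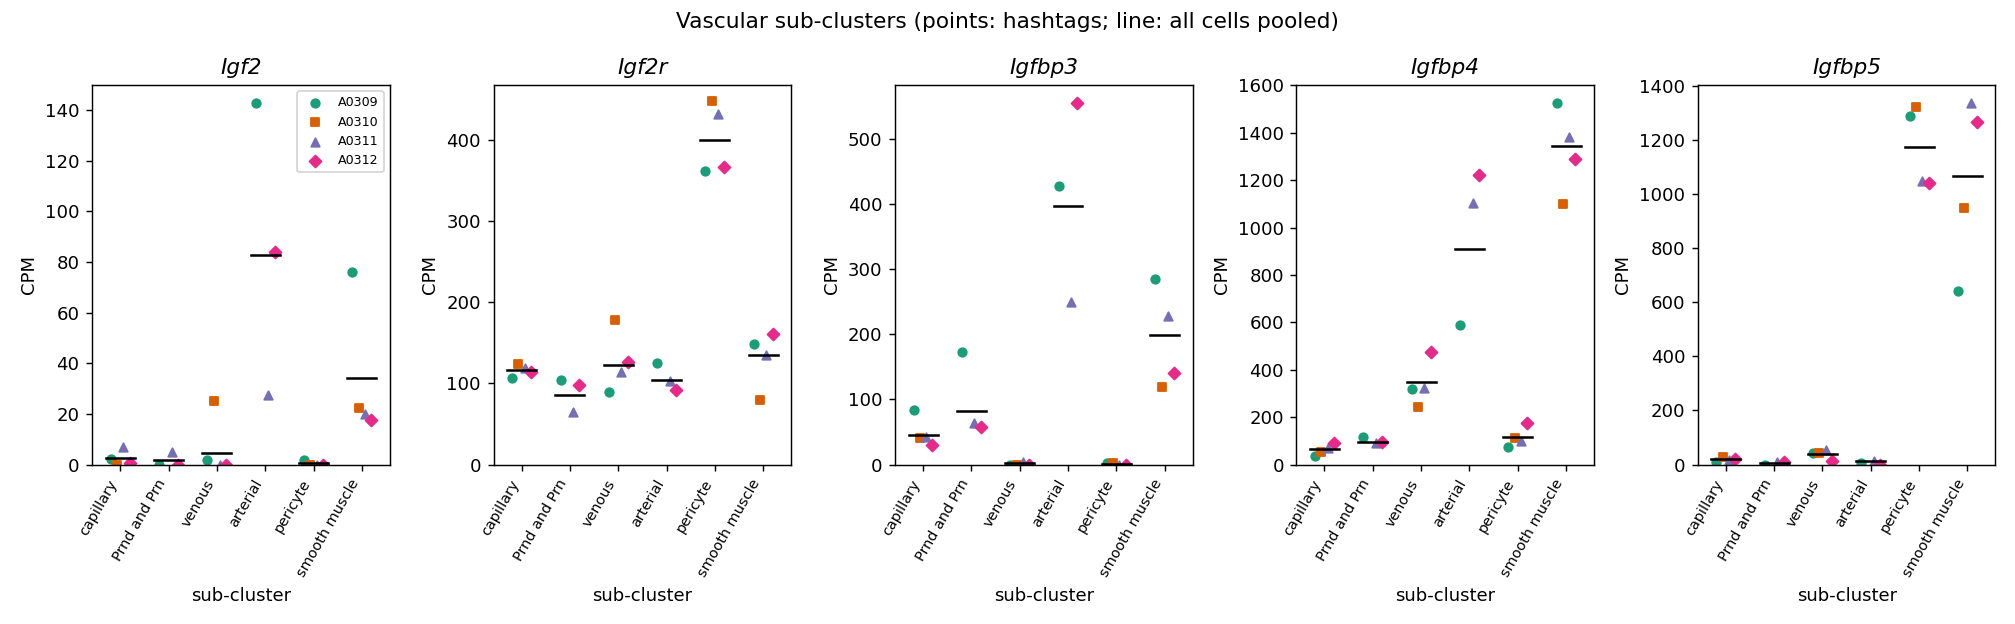
Level of Igf2, Igf2r, Igfbp3, Igfbp4 and Igfbp5 (panels, CPM on linear axes from 0) in 6 vascular sub-clusters, with 1 point per hashtag of at least 20 cells and a line for the pool. Igfbp5 is high in both mural-like sub-clusters, and Igfbp3 in arterial-like and smooth-muscle-like cells.

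Of 46 other genes of the IGF pathway, 45 were in the table. Between macrophage-like and fibroblast-like cells 35 reached 5 CPM, and the call went to macrophage-like cells for 4 (14.2% of all genes) and to fibroblast-like cells for 15 (19.1%). Of 6 genes at that level for proteases of binding proteins and their regulators, 4 had the call toward fibroblast-like cells and 2 had none, with Htra3 at 1224 against 8.91 CPM and Htra1 at 386 against 3.12 CPM. Of 6 genes of the growth hormone axis, 4 had that same call and 2 had none, with the receptor Ghr at 61.9 against 1.20 CPM and the feedback inhibitor Socs2 at 106 against 4.03 CPM. Grb10, an adaptor that restrains the IGF1 receptor, was 67.1 against 0.862 CPM. Higher in macrophage-like cells were the kinase gene Pik3cb, at 36.5 against 2.11 CPM, Igf2bp2, at 66.8 against 7.67 CPM, and M6pr, the cation-dependent mannose 6-phosphate receptor, at 261 against 81.9 CPM. Insr, the insulin receptor, was not called, at 12.3 against 12.99 CPM.

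Between the 2 fibroblast-like states 1 of 34 pathway genes was called, beside 5.05% of all genes. It was Adam12, a protease that can cut binding proteins, at 213 CPM in preadipocyte-like and 40.8 CPM in Dpp4-progenitor-like cells. Between lipid-associated-like and resident-like cells 3 of 27 were higher in the former (5.83% of all genes), with Igf2bp2 at 95.5 against 5.63 CPM, and 2 were lower (11.1%). Against fibroblast-like cells, 4 of 36 were higher in endothelial-like cells (12.8% of all genes) and 9 lower (10.6%). Insr was 48.6 against 12.99 CPM, and Stc1, an inhibitor of PAPP-A, was 62.4 against 0.395 CPM. Against mural-like cells, 1 of 33 was higher in endothelial-like cells (4.09% of all genes), Socs2 at 121 against 35.7 CPM. The 9 that were lower (7.21% of all genes) included the adaptors Irs1, at 1.04 against 28.7 CPM, and Irs2, at 4.99 against 123 CPM.

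Over the 25 populations of at least 50 cells, the genes most like each member in level were sought among 11681 genes. Igfbp6 was most like Clec3b (Pearson r 0.99) and Pcolce2 (0.99), Igfbp7 most like Nfib (0.99), and Igfbp5 most like Smarcd3 (0.96). Igf2 was most like Stmn2 (0.95), Igf1r like Rnf215 (0.94), and Igfbp4 like Aldh1a1 (0.91). Igf1 (Itsn1, 0.88), Igfbp3 (Nudt4, 0.88) and Igf2r (Slc12a4, 0.83) had the weakest matches. The populations share 1 library and differ in depth, so these values are descriptions. Outside arterial-like and smooth-muscle-like cells Igf2 was at 4.46 CPM or lower, so its value leans mainly on those populations.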

How the data were processed

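Single cells were sequenced by TAS-Seq on BD Rhapsody beads, per the labels' protocols. The deposited files hold counts per gene and cell, and counts of hashtags per barcode. The submitters' processing notes list Bowtie2 2.4.2 and cutadapt 3.4, the build GRCm38, and R 4.1.2 beside R 3.6.3, without their roles. Reads and molecules cannot be told apart as the unit counted from the sources used here, and intervals would cover counting error only. Hashtag and doublet calls were the authors', taken from the deposited cell names: 15374 cells had a hashtag and 367 doublets were removed. Cells with at most 25% mitochondrial counts and at least 200 genes were kept (182 left out). Clustering used scanpy 1.11.5 (2000 variable genes, 30 components, 20 neighbours, Leiden resolution 1), without the 9 genes and the pathway genes. A class or state needed at least 3 of its markers. Genes were called by size only, on CPM + 1, among genes at 5 CPM or more; the rule was tested on simulated data. The 9 genes are always named. Per pathway group and comparison, up to 2 called genes with the largest ratio and the uncalled gene of highest CPM could be named. Members and lists were chosen with earlier results of these data known. Alternatives covered the pseudocount, scaling, weighting of cells, low-value filter, hashtag rule, mixed sub-clusters, resolution, deepest cells and each hashtag. Promoters of all 9 genes matched RefSeq by symbol.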

Additional observations from a re-analysis of the deposited data

How the results depend on the processing

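With 1 library and hashtags of unknown source, the spread over hashtags is not biological replication. Between Dpp4-progenitor-like and preadipocyte-like cells 4 genes were called, and 2 under a strict hashtag rule (at least 75% of tags from 1 hashtag) and 2 at Leiden resolution 2. Between endothelial-like and mural-like cells 3 were called, and 1 under the strict rule. With pericyte-like cells only, an alternative chosen after seeing the data, the Igfbp4 ratio reversed to 0.8721. Leaving out each hashtag in turn gave 6 to 6 calls for macrophage-like over fibroblast-like, 3 to 4 for lipid-associated-like over resident-like (Igfbp6 lost and others gained without A0309), 4 to 4 for the fibroblast-like states, 6 to 7 for endothelial-like over fibroblast-like and 3 to 3 for endothelial-like over mural-like cells. Of the log2 ratios of the 9 genes under all alternatives, 532 kept their status, which includes ratios that were not called and stayed so. A call was lost for 32 and gained for 11, and 1 ratio reversed. Igf2 (1.31) and Igfbp3 (1.82) were no longer called for endothelial-like over fibroblast-like cells at resolution 0.5, nor Igf2 (1.32) at resolution 2, nor Igf1 (-1.07) and Igfbp5 (-0.97) with mixed sub-clusters kept. Over all genes, 1924 were called between lipid-associated-like and resident-like cells, 1207 with a pseudocount of 5 CPM, 985 under the strict rule, 3001 without A0309 and 3160 without A0311. A call must hold in every hashtag used, and their number differed. It was 2 in the main run, 4 under the strict rule, and 1 without A0309 or without A0311. These counts are therefore not on the same footing. Between endothelial-like and mural-like cells 1416 were called, and 848 under the strict rule. The cause was not tested. No paired analysis was possible because the results come from no test; ratios were taken within each hashtag.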
